A study of Homo sapiens with 6 samples.

Results

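The cornified envelope and *LY6D* differentiation genes comprise 6 genes of the keratinocyte terminal program, namely *LY6D*, *IVL*, *TGM1*, *TGM2*, *SPRR1B* and *CSTA*. They were looked up by symbol in the deposited table of 12499 genes, and 5 of the 6 had a row. *SPRR1B* had none, and its expression was not analysed here. The 6 genes were chosen from the measured difference between the 2 groups of this experiment. Their values in that comparison are therefore given as a description, without a test.

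The libraries came from HaCaT cells, an immortalized line of human keratinocytes, infected for 48 hours with lentivirus and then cultured for 24 hours in 25 mM glucose, the high-glucose condition. By the labels, the virus carried the human *ATF7* coding sequence in 3 libraries (LV-*ATF7*) and was the negative control virus in the other 3 (LV-NC). All 6 libraries share the infection and the high glucose, and no library in normal glucose was analysed here. The question was which transcripts differ in keratinocytes given *ATF7*, a bZIP transcription factor of the ATF/CREB family. Nothing states that the replicates were separate cultures, so p-values measure only the spread between these libraries.

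The cornified envelope is the protein and lipid shell that replaces the plasma membrane of a keratinocyte as it dies at the skin surface. Precursor proteins such as involucrin, the small proline-rich proteins and cystatin A are laid under the membrane, and transglutaminases join them through bonds between glutamine and lysine residues. *LY6D*, a small GPI-anchored surface protein of the LY6/uPAR superfamily, marks stratified squamous epithelium.

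Total counts ranged from 16686472 to 20562768 per library. *ATF7* itself went against the label. It measured 21.9, 25.7 and 28.0 CPM (counts scaled to library size, with TMM correction for composition) in the libraries labelled LV-*ATF7* against 50.6, 46.5 and 52.2 CPM in LV-NC (log2 fold change -0.98, SE 0.12, adjusted p = 1.89e-04 by edgeR's quasi-likelihood test), and 43.8% of its exon bases are shared with other genes. The paper reports *ATF7* overexpression in HaCaT cells infected with LV-*ATF7*, by quantitative PCR and western blot, measurements not analysed here. Every direction given here is that of the labels and would be the opposite if the 2 groups were exchanged, which was not tested. LV-NC replicate 1 stood apart from the other 2 LV-NC libraries. Over all genes tested, 8.29% lay more than 1 log2 unit from the mean of replicates 2 and 3 in that library, whereas 1.25% differed by as much between replicates 2 and 3. Of the keratinocyte markers, 10 of 10 had a row, with summed levels of 1000.3 to 1389.5 CPM in LV-NC and 5205.6 to 5692.1 CPM in the libraries labelled LV-*ATF7*, most of the difference being in *KRT5* (mean 266.4 and 3353.6 CPM). Of these 10, 6 were called higher, 2 lower (*KRT14* and *LAMA3*) and 2 not called (*KRT6A* and *KRT17*). *KRT14*, a defining basal keratin, was low throughout, at 0.375 to 12.5 CPM, and its call (adjusted p = 0.0461) was lost in 5 of 6 fits that each left out a library, all but the one without LV-NC replicate 1 (adjusted p from 0.105 to 0.128 in those 5). The 5 simple epithelial markers summed to 1252.0 to 2818.2 CPM and 7149.6 to 8078.4 CPM, mostly through *KRT19* (mean 401.8 and 4064.5 CPM) and *KRT7* (mean 99.1 and 1602.7 CPM), whereas *EPCAM* was called lower and *KRT8* was not called. The 2 endothelial markers with a row of 5 listed, *CDH5* and *VWF*, summed to 1.12 to 5.50 CPM and 84.6 to 89.9 CPM, and *PECAM1*, *KDR* and *TEK* had no row. The 2 fibroblast markers with a row of 5 summed to 33.1 to 42.7 CPM and 17.3 to 21.7 CPM, with *COL1A1* called lower and *DCN* not called but at a higher value in every library labelled LV-*ATF7*. The 2 melanocyte markers with a row of 5 summed to 17.5 to 24.8 CPM and 12.2 to 13 CPM, with *MITF* called lower and *PMEL* called higher. None of 5 leukocyte markers had a row. The part of these marker levels in the results below was not tested.

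Of the 5 measured members, 4 were higher in the libraries labelled LV-*ATF7* and 1, *IVL*, was lower. For 5 of 5 members the LV-NC values and the values labelled LV-*ATF7* formed separate ranges. Over the 12462 genes tested, 67.6% had an adjusted p under 0.05, 34.7% being higher and 32.9% lower, and 72.7% had groups that did not overlap. The members' median log2 fold change was 2.50 and that of all genes 0.00. Because the members were chosen on this contrast, nothing is read from these shares. In cultures measured in bulk, fewer cells of a type and less RNA per cell cannot be told apart.

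**Figure D1:**
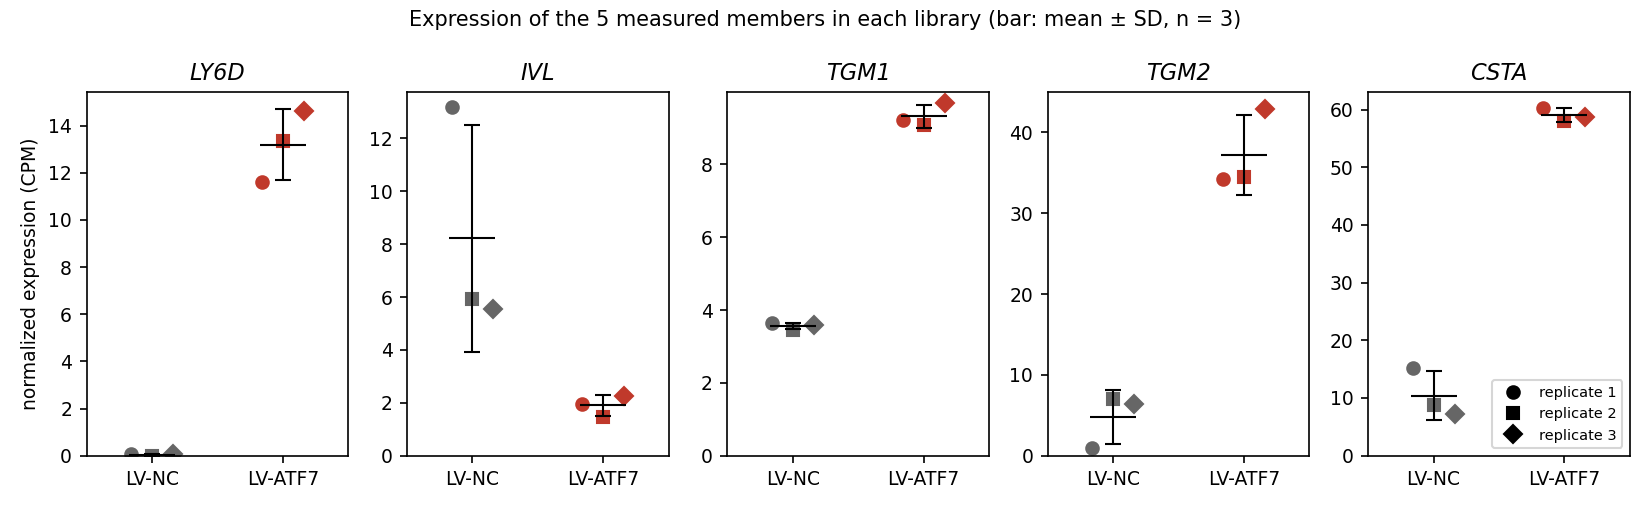
Normalized expression (CPM, linear axis from 0) of the 5 measured members, with LV-NC in gray, the libraries labelled LV-*ATF7* in red, a point for each library, marker shape for the replicate number and bars for the mean ± SD (n = 3). *LY6D*, *TGM1*, *TGM2* and *CSTA* are higher in the libraries labelled LV-*ATF7*, *IVL* is lower, and LV-NC replicate 1 is the highest LV-NC library for *IVL* and *CSTA* and the lowest for *TGM2*.

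The envelope precursor of the group, *IVL* (ENSG00000163207, chr1:152908545-152911886 in GRCh38, plus strand), encodes involucrin, a glutamine-rich scaffold that is cross-linked early in envelope assembly. *IVL* measured 13.2, 5.92 and 5.56 CPM in LV-NC replicates 1, 2 and 3 and 1.95, 1.48 and 2.27 CPM in the libraries labelled LV-*ATF7*. Every LV-NC library lay above every library labelled LV-*ATF7*, and LV-NC replicate 1 was set well above the other 2. The means were 8.22 ± 4.29 and 1.90 ± 0.397 CPM (SD, n = 3), with a log2 fold change of -2.11 (SE 0.38). Without LV-NC replicate 1 the log2 fold change was -1.62. The *IVL* values in the libraries labelled LV-*ATF7* rest on 29 to 41 counts each, for which counting error alone gives a relative SD of 16.9%, near the 20.9% observed.

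*IVL* lies in the epidermal differentiation complex, a gene cluster on chromosome 1 that holds most envelope precursor genes. From *S100A10* to *S100A1* (chr1:151982915-153632039) GENCODE annotates 64 protein-coding genes, and 20 of them had a row. Of these 20, 14 were called higher in the libraries labelled LV-*ATF7* and 4 were not called. The other 2 were lower. *S100A13*, named after its values were seen, was called (log2 fold change -1.05, SE 0.24, adjusted p = 0.0048), and *IVL* is a member, described without a test. Over all genes tested, 34.7% were called higher and 32.9% lower. Every gene with a row had at least 51 counts over the 6 libraries. *HRNR*, *FLG2*, *PGLYRP4*, *S100A8*, *S100A7A* and *S100A7* reached that only through the libraries labelled LV-*ATF7*. Their rows, and with them their calls, thus largely depended on higher values there, and nothing is read from the 14 against the 34.7%. Without LV-NC replicate 1, 15 of the 20 were called higher and 3 lower, counts from which *IVL* was not set aside. The 4 not called, named for that reason, were *S100A10*, *TCHH*, *S100A2* and *S100A1*. The nearest genes with a row were *FLG2*, 548.5 kb toward lower coordinates, and *PGLYRP4*, 418.2 kb toward higher coordinates. *FLG2*, a filaggrin-like envelope protein, had at most 3 counts in each LV-NC library and, against a floor of 3 counts per library, rose at least 14.5-fold (adjusted p = 1.88e-04). *PGLYRP4*, a peptidoglycan recognition protein, rose from 0.159 ± 0.161 to 7.99 ± 0.789 CPM (SD, n = 3, log2 fold change 5.56, SE 0.47, adjusted p = 2.82e-05), or by 6.46 log2 units without LV-NC replicate 1. *SPRR1B* (chr1:153031202-153032900) lies 119.3 kb beyond *IVL*, between these neighbours, and no gene of the SPRR family had a row.

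**Figure D2:**
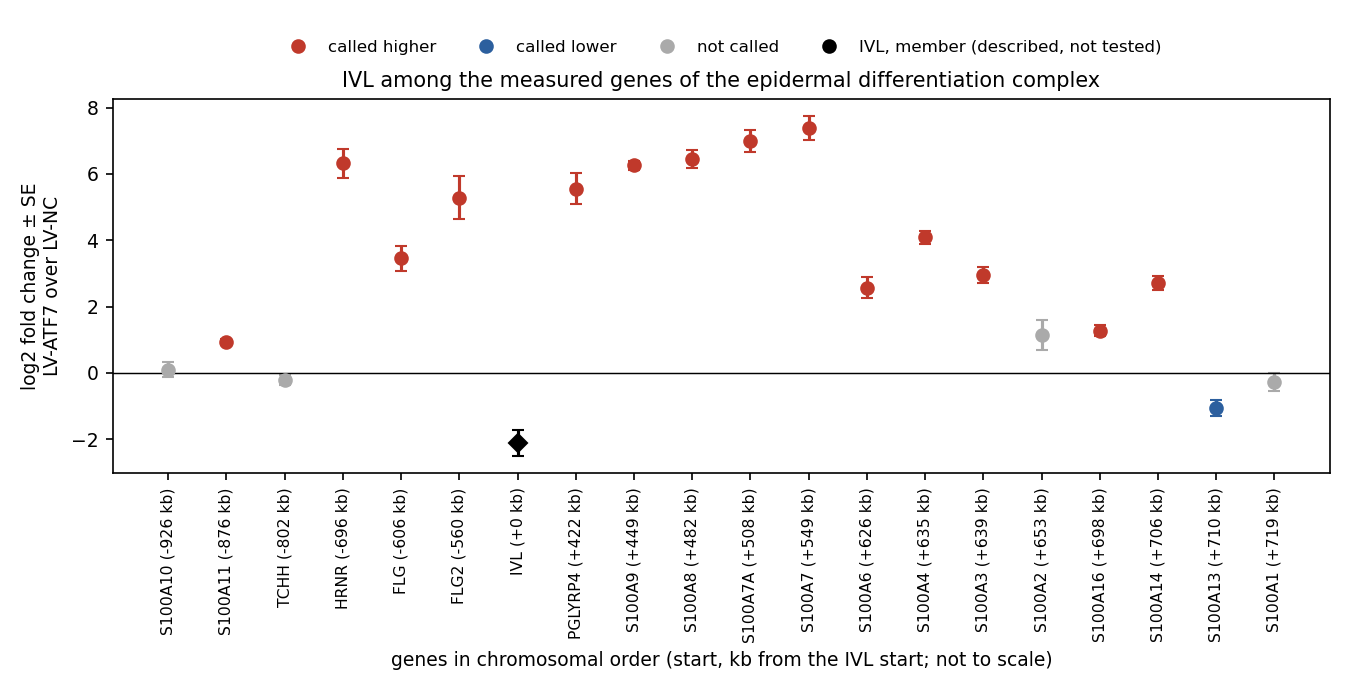
Log2 fold change ± SE (libraries labelled LV-*ATF7* over LV-NC, 3 libraries each) of the 20 measured genes of the epidermal differentiation complex in chromosomal order, evenly spaced, with each gene's start in kb from the *IVL* start. *IVL*, drawn as a black diamond at -2.11, lies below the zero line between *FLG2* on one side and *PGLYRP4* on the other, both called higher in red.

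The start regions of *IVL* and *SPRR1B* are shown with those of *FLG* and *FLG2*, envelope genes of the same cluster whose difference ran opposite to that of *IVL*. Of the 6 members, 2 had an entry in the RefSeq promoter table (GRCh38.p14). The 250 bases before each start are printed 5′ to 3′ on the gene's own strand. Capitals mark each match to TGANTCA (N is any base), a loose form of the AP-1 site of the Jun, Fos and ATF families. *IVL* is at chr1:152908296-152908545 (plus strand), *SPRR1B* at chr1:153030953-153031202 (plus strand), *FLG* at chr1:152325240-152325489 (minus strand) and *FLG2* at chr1:152360007-152360256 (minus strand).
IVL: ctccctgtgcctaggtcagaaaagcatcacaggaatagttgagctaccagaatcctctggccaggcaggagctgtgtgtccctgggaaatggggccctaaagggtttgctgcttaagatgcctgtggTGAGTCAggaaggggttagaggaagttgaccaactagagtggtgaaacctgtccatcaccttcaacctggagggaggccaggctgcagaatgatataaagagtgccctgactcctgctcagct
SPRR1B: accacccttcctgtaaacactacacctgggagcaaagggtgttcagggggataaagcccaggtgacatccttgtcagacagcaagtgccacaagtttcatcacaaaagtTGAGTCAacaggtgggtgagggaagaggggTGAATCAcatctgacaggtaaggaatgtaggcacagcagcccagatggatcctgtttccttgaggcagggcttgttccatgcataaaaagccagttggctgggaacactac
FLG: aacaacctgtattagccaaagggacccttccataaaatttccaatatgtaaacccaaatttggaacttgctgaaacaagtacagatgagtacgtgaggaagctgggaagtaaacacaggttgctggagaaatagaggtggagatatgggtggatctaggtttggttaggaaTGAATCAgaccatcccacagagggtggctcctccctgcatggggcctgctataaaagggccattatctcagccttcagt
FLG2: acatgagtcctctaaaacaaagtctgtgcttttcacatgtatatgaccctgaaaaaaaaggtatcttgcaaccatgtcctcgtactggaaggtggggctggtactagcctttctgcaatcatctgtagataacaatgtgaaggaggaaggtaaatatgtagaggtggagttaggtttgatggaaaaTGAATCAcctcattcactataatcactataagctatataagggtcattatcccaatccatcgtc

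The first base of the AP-1 match was 123 bases before the start of *IVL*, 141 and 111 bases before that of *SPRR1B*, 79 bases before that of *FLG* and 64 bases before that of *FLG2*. None of the 4 windows held TGACGTCA, the full cAMP response element. Both motifs are their own reverse complement, so 1 search covers both strands, and they do not overlap each other. The matches of *IVL* and the first of *SPRR1B* read TGAGTCA, and the others TGAATCA. Of 35116 promoters of the same length, 2308 (6.57%) held the loose AP-1 letters and 578 (1.65%) the cAMP response element. A match is a string of letters, and these data do not show binding.

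Among the other envelope precursors, 13 of 48 listed genes were tested, with 7 called higher, 2 called lower (*PPL* and *CST6*) and 4 not called (median log2 fold change 0.43). The share called was 69.2%, near the 67.6% of all genes tested, and no set test was run on this or any other list. *PI3*, which encodes the transglutaminase substrate elafin, rose from 1.63 ± 0.858 to 62.7 ± 4.93 CPM (log2 fold change 5.27, SE 0.33, adjusted p = 7.04e-06). *FLG*, whose product filaggrin aggregates keratin filaments, rose from 1.71 ± 1.16 to 18.7 ± 0.497 CPM (log2 fold change 3.46, SE 0.38, adjusted p = 1.07e-04), and its log2 fold change was 4.09 without LV-NC replicate 3. *S100A11*, a calcium-binding envelope component, rose from 178.5 ± 10.4 to 341.3 ± 24.1 CPM (adjusted p = 7.54e-05). *PPL*, which encodes periplakin, fell from 491.9 ± 79.3 to 332.3 ± 14.8 CPM (log2 fold change -0.57, SE 0.13, adjusted p = 0.00537), the same direction as *IVL*. *LORICRIN* and *KRT1*, reference late markers, had no row. *KRT10*, the suprabasal partner of *KRT1*, fell from 109.9 ± 7.85 to 75.3 ± 1.26 CPM (log2 fold change -0.55, SE 0.09, adjusted p = 9.61e-04).

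Both transglutaminases of the group were higher in the libraries labelled LV-*ATF7*. *TGM1* and *TGM2* were also the only transglutaminase genes with a row among the 8 listed. *TGM1* (ENSG00000092295, chr14:24249114-24264432, minus strand) encodes the membrane-anchored keratinocyte enzyme that cross-links the envelope. *TGM1* measured 3.64, 3.46 and 3.59 CPM in LV-NC replicates 1, 2 and 3 and 9.21, 9.07 and 9.68 CPM in the libraries labelled LV-*ATF7*. Each group was tight, LV-NC replicate 1 lay with the other 2, and the groups did not overlap. The means were 3.56 ± 0.0932 and 9.32 ± 0.317 CPM (SD, n = 3), with a log2 fold change of 1.39 (SE 0.15). *TGM1* had the smallest relative spread of the members in LV-NC, 2.62%, which is below the 12.4% that counting error gives at 62 to 68 counts.

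*TGM2* (ENSG00000198959, chr20:38127387-38166578, minus strand) encodes tissue transglutaminase, a widely expressed enzyme that is not specific to the epidermis. *TGM2* measured 0.910, 7.02 and 6.43 CPM in LV-NC replicates 1, 2 and 3 and 34.2, 34.5 and 42.9 CPM in the libraries labelled LV-*ATF7*. LV-NC replicate 1 was far below the other 2, opposite to its place for *IVL*, and every library labelled LV-*ATF7* was above every LV-NC library. The means were 4.79 ± 3.37 and 37.2 ± 4.95 CPM (SD, n = 3), with a log2 fold change of 2.96 (SE 0.54) that was 2.44 without LV-NC replicate 1. Antisense genes cover 4.9% of the *TGM2* exon bases, and whether the counting used strand is not given in the sources used here.

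Levels of different genes were set side by side as CPM per kilobase of annotated exon. The *TGM2* to *TGM1* ratio on this scale was 0.116 in LV-NC replicate 1, 0.944 in replicate 2 and 0.832 in replicate 3. In the libraries labelled LV-*ATF7* it was 1.73, 1.77 and 2.06, so the ratio was below 1 in every LV-NC library and above 1 in every library labelled LV-*ATF7*. Its level depends on the annotated exon lengths, 8036 bases for *TGM2* and 3735 for *TGM1*, and without division by length *TGM2* was above *TGM1* in 5 of the 6 libraries. The *IVL* to *TGM1* ratio, substrate to enzyme, was 6.28, 2.97 and 2.69 in LV-NC and 0.368, 0.283 and 0.406 in the libraries labelled LV-*ATF7*. *IVL* was thus above *TGM1* in every LV-NC library and below it in every library labelled LV-*ATF7*.

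*CSTA* (ENSG00000121552, chr3:122325244-122341972, plus strand) encodes cystatin A, an intracellular inhibitor of cysteine cathepsins that also becomes part of the envelope. *CSTA* measured 15.3, 8.75 and 7.24 CPM in LV-NC replicates 1, 2 and 3 and 60.3, 58.1 and 58.7 CPM in the libraries labelled LV-*ATF7*. LV-NC replicate 1 was the highest of its group, and the groups did not overlap. The means were 10.4 ± 4.26 and 59.0 ± 1.18 CPM (SD, n = 3), with a log2 fold change of 2.50 (SE 0.25), or 2.86 without LV-NC replicate 1. The relative spread was 40.9% in LV-NC and 2.0% in the libraries labelled LV-*ATF7*.

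*CSTB*, which encodes the broadly expressed paralog cystatin B, rose from 79.6 ± 15.1 to 112.7 ± 6.40 CPM (SD, n = 3, log2 fold change 0.50, SE 0.15, adjusted p = 0.0153). This call was lost without LV-*ATF7* replicate 1 (adjusted p = 0.0505) or LV-*ATF7* replicate 3 (adjusted p = 0.0596). The *CSTA* to *CSTB* ratio per kilobase was 0.703, 0.286 and 0.233 in LV-NC and 1.51, 1.58 and 1.42 in the libraries labelled LV-*ATF7*. The level of this ratio depends on the annotated exon lengths, 3935 bases for *CSTB* and 1373 for *CSTA*, whereas its fold difference between groups does not. Without division by length *CSTA* was below *CSTB* in every library.

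Of the other cystatins and their protease targets, 11 of 15 listed genes were tested, with 5 called higher, 4 called lower and 2 not called (median log2 fold change -0.18). That is 81.8% called, beside 67.6% of all genes. *CTSS*, the lysosomal protease cathepsin S, rose from 1.67 ± 1.04 to 27.5 ± 1.99 CPM (log2 fold change 4.03, SE 0.37, adjusted p = 4.08e-05). *CTSH* rose from 195.5 ± 13.4 to 559.2 ± 32.4 CPM (adjusted p = 8.52e-06) and *CTSC*, which activates serine proteases, from 90.3 ± 10.2 to 249.4 ± 7.77 CPM (adjusted p = 1.36e-05). *CTSV*, the cathepsin that cystatin M inhibits in skin, fell from 22.5 ± 8.37 to 2.39 ± 0.544 CPM (log2 fold change -3.23, SE 0.34, adjusted p = 8.34e-05). *LGMN*, which encodes legumain, fell from 272.9 ± 40.3 to 54.0 ± 0.534 CPM (log2 fold change -2.34, SE 0.13, adjusted p = 3.66e-06). *CST6* and *CST7*, named after their values were seen, encode cystatins M and F and had at most 3 counts in each library labelled LV-*ATF7*. *CST6* was at least 27.2-fold lower there and *CST7* at least 20.9-fold lower (at least 12.7-fold without LV-NC replicate 1), the opposite direction to *CSTA*. *CTSB*, likewise named after its values were seen, rose from 333.6 ± 41.8 to 869.4 ± 64.8 CPM (adjusted p = 3.46e-05).

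**Figure D3:**
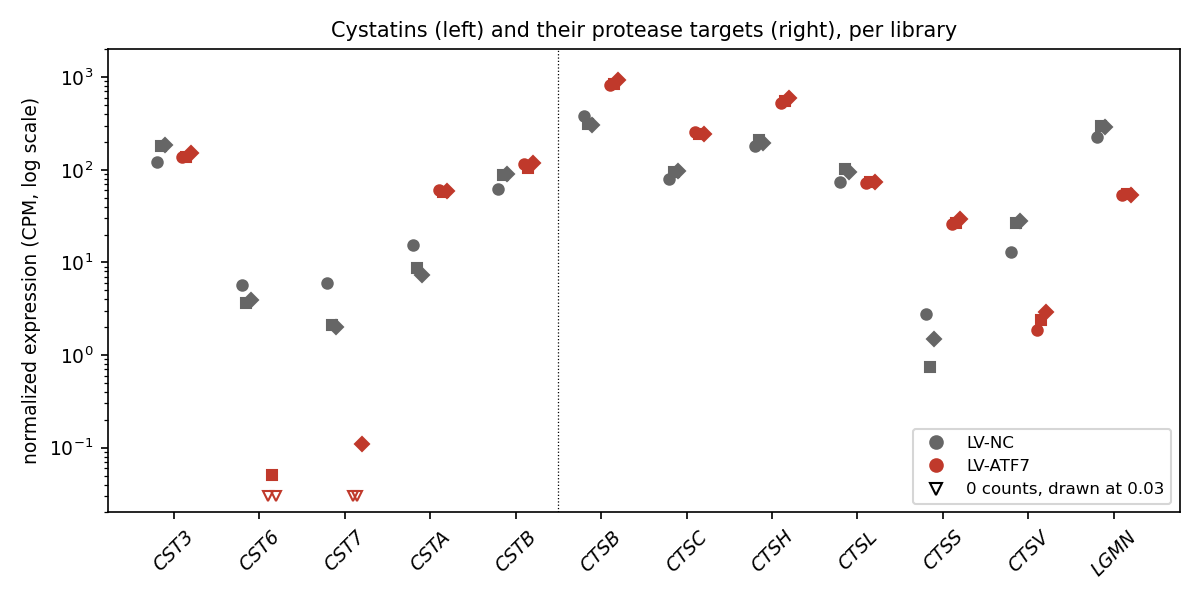
Normalized expression (CPM, log axis) of 5 cystatins, left of the dotted line, and 7 protease targets, right of it, with a point for each library, LV-NC in gray, the libraries labelled LV-*ATF7* in red and open triangles at 0.03 for 0 counts. *CSTA*, *CSTB*, *CTSB*, *CTSC*, *CTSH* and *CTSS* lie higher in the libraries labelled LV-*ATF7*, and *CST6*, *CST7*, *CTSV* and *LGMN* lie lower.

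The surface protein gene *LY6D* (ENSG00000167656, chr8:142784880-142786592, minus strand) was close to undetected in LV-NC. *LY6D* had 1, 0 and 1 counts in LV-NC replicates 1, 2 and 3 and 208, 262 and 264 counts in the libraries labelled LV-*ATF7*, where it measured 11.6, 13.4 and 14.6 CPM. The difference did not rest on LV-NC replicate 1, which was at the level of the other 2. Against a floor of 3 counts per LV-NC library, the libraries labelled LV-*ATF7* (mean 13.2 ± 1.5 CPM, SD, n = 3) were at least 80.5-fold higher. Of its exon bases, 13.9% are shared with a gene on the opposite strand.

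The LY6/uPAR superfamily groups proteins with a 3-finger fold, most of them anchored at the cell surface. Beside *LY6D*, 15 of 26 listed members were tested, with 9 called higher, 4 called lower and 2 not called (median log2 fold change 1.59). Calls made up 86.7% of those tested, beside 67.6% of all genes. *LYPD5* rose from 2.08 ± 0.709 to 25.5 ± 0.711 CPM (log2 fold change 3.61, SE 0.23, adjusted p = 7.29e-06), *PSCA* from 0.774 ± 0.315 to 7.34 ± 0.392 CPM (adjusted p = 3e-05) and *LYPD1* from 1.53 ± 1.24 to 11.9 ± 0.459 CPM (log2 fold change 2.95, adjusted p = 7.52e-04, or 3.81 without LV-NC replicate 1). Genes on the opposite strand share 48.9% of the *LYPD1* exon bases and 20.9% of those of *PSCA*. *PLAUR*, the urokinase receptor gene, fell from 87.6 ± 33.6 to 8.58 ± 2.25 CPM (log2 fold change -3.35, SE 0.34, adjusted p = 7.04e-05). *LYPD3*, which encodes the adhesion protein C4.4A, fell from 28.4 ± 11 to 6.85 ± 1.02 CPM (adjusted p = 5.59e-04). *CD59*, which encodes a complement inhibitor, fell from 247.2 ± 20.9 to 147.8 ± 7.09 CPM (adjusted p = 2.52e-04). The nearest genes with a row on either side of *LY6D* belong to the same family. *LYPD2*, 32.3 kb away, rose with a log2 fold change of 2.40 (SE 0.41, adjusted p = 0.00109), or 3.15 without LV-NC replicate 1, and *LY6E*, 231.4 kb away, with 2.56 (SE 0.31, adjusted p = 1.82e-04).

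Per kilobase of exon, the order of the members' levels in LV-NC was *CSTA* at 7.59 ± 3.10, *IVL* at 3.82 ± 1.99, *TGM1* at 0.954 ± 0.0250, *TGM2* at 0.596 ± 0.419 and *LY6D* at 0.0239 ± 0.0208 CPM per kb (SD, n = 3). Neighbouring means were separated by less than their spread for *TGM1* and *TGM2*, and *CSTA* and *IVL* lay within the sum of their SDs. Within each LV-NC library the order nevertheless held. *CSTA* measured 11.1, 6.38 and 5.27 and *IVL* 6.12, 2.75 and 2.58 CPM per kb in replicates 1, 2 and 3, and *TGM1* lay above *TGM2* in each. In the libraries labelled LV-*ATF7* the order was *CSTA* at 43.0 ± 0.860, *LY6D* at 8.49 ± 0.967, *TGM2* at 4.63 ± 0.616, *TGM1* at 2.50 ± 0.0848 and *IVL* at 0.882 ± 0.185 CPM per kb. Each neighbouring pair there was separated by more than the sum of their SDs. *LY6D* stood last in LV-NC and next to *CSTA* in the libraries labelled LV-*ATF7*, whereas *IVL* stood next to *CSTA* in LV-NC and last in the libraries labelled LV-*ATF7*.

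LV-NC replicate 1 differed from the mean of LV-NC replicates 2 and 3 by 1.18 log2 units for *IVL*, 0.93 for *CSTA*, 0.27 for *LY6D*, 0.05 for *TGM1* and -2.75 for *TGM2*. Over all genes, 5% lay below -0.96 and 5% above 0.89, so *IVL*, *CSTA* and *TGM2* were outside that range and *LY6D* and *TGM1* inside it. *KRT5* and *KRT14* were also low in that library, but the keratinocyte markers went both ways there. *KRT5* measured 99.96 CPM there against 355.5 and 343.8 CPM in the others, and *KRT14* measured 0.375 CPM against 12.5 and 11.3 CPM. *KRT6A*, *KRT17*, *LAMA3* and *COL17A1* were likewise below both other LV-NC libraries. *TP63* (0.375 log2 units), *DSG3* (0.294) and *ITGB4* (0.287) lay above the mean of replicates 2 and 3, and *ITGA6* lay near it (-0.025).

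The genes nearest to each member in pattern were found among 11176 genes by the Euclidean distance of gene-centred log2 CPM over the 6 libraries. *SEMA5B* (distance 0.55), *POU2AF1* (0.61) and *S100A9* (0.73) were nearest to *LY6D*. *TBC1D10C* (0.48), *DBN1* (0.49) and *TSC22D2* (0.55) were nearest to *IVL* and shared its high value in LV-NC replicate 1, at 22.9, 38.9 and 192.9 CPM there. *RACK1* (0.06), *SCART1* (0.06) and *YPEL3* (0.07) were nearest to *TGM1*. The low LV-NC replicate 1 of *TGM2* recurred in its nearest genes *DUSP9* (0.41), *KLK10* (0.43) and *SLC38A5* (0.46). *EDARADD* (0.17), *TRIM22* (0.19) and *MAML2* (0.24) were nearest to *CSTA*. Distances between members ran from 1.66 between *TGM1* and *CSTA* to 10.4 between *LY6D* and *IVL*. The genes named as nearest were picked as the closest of 11176, so nothing is read from members lying farther apart. That pick used LV-NC replicate 1 too, so a shared high or low value there follows from it.

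The neighbours of the remaining members were less uniform than those of *LY6D*. Beside *TGM1*, *TINF2* fell (log2 fold change -0.48, SE 0.12, adjusted p = 0.00669), and *RABGGTA*, 1.1 kb away, was not called (log2 fold change -0.28, adjusted p = 0.211) but passed without LV-NC replicate 1 (adjusted p = 6.55e-05), with voom and quality weights (adjusted p = 1.73e-06) and with library sizes alone (adjusted p = 0.0469). Beside *TGM2*, *RPRD1B*, which overlaps it by 0.4 kb on the opposite strand, fell (log2 fold change -0.42, SE 0.08, adjusted p = 0.00208), and *KIAA1755* rose (log2 fold change 3.44, SE 0.33, adjusted p = 4.9e-05). Beside *CSTA*, *SLC15A2* rose (log2 fold change 1.64, SE 0.21, adjusted p = 2.22e-04) and *MIX23*, 17.6 kb away, was not called (log2 fold change -0.10, adjusted p = 0.535).

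The lists of the wider barrier program held genes called in both directions, as did all genes tested (34.7% higher and 32.9% lower). Of the lipid and late-processing genes, 23 of 34 were tested, with 13 called higher, 6 called lower and 4 not called (median log2 fold change 0.91). That is 82.6% called, beside 67.6% of all genes. *PADI3*, which citrullinates filaggrin and keratin-associated proteins, rose from 0.608 ± 0.452 to 26.1 ± 4.06 CPM (log2 fold change 5.42, SE 0.43, adjusted p = 2.14e-05). The protease inhibitor genes *SERPINB13* (18.8 ± 7.13 to 304.3 ± 15.8 CPM, adjusted p = 1.2e-05) and *SPINK5* (0.947 ± 0.312 to 14.6 ± 1.35 CPM, adjusted p = 7.06e-06) also rose. *SMPD1*, acid sphingomyelinase, which makes barrier ceramides, fell from 103.8 ± 13.2 to 4.96 ± 0.156 CPM (log2 fold change -4.38, SE 0.14, adjusted p = 7.93e-07). *ELOVL4*, which elongates very long chain fatty acids, fell from 14.4 ± 2.09 to 1.24 ± 0.121 CPM (adjusted p = 4.19e-06), and *ST14*, which encodes the protease matriptase, from 933.2 ± 207.7 to 333.3 ± 22.6 CPM (adjusted p = 1.36e-04).

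Of the suprabasal keratin and corneodesmosome genes, 6 of 18 were tested, with 3 called higher, 2 called lower (*KRT10* and *KRT80*) and 1 not called (median log2 fold change 0.20). The share called was 83.3%, beside 67.6% of all genes. The groups overlapped for *KRT80*, named after its values were seen, and its call (adjusted p = 0.0379) was lost in 5 of 6 fits that each left out a library, all but the one without LV-NC replicate 1 (adjusted p from 0.0519 to 0.136 in those 5). The desmosomal genes *PKP1* (95.7 ± 21.2 to 427.8 ± 18.6 CPM, adjusted p = 1.44e-05) and *DSP* (588.4 ± 100.8 to 983.6 ± 34.5 CPM, adjusted p = 0.00171) rose, as did *DMKN* (31.1 ± 3.83 to 87.0 ± 6.24 CPM, adjusted p = 2.16e-05), which encodes dermokine. Of the regulators of late differentiation, 19 of 20 were tested, with 11 called higher, 7 called lower and 1 not called (median log2 fold change 0.64). Calls made up 94.7% of these, beside the same 67.6%. *POU2F3*, a POU-domain factor of suprabasal epidermis, rose from 0.694 ± 0.303 to 17.9 ± 1.14 CPM (log2 fold change 4.68, SE 0.27, adjusted p = 5.49e-06). *TP63*, the master regulator of stratified epithelium, rose from 15.5 ± 2.84 to 231.5 ± 10.8 CPM (log2 fold change 3.90, SE 0.15, adjusted p = 1.18e-06), and *PRDM1*, a transcriptional repressor found in the granular layer, from 1.09 ± 0.496 to 10.8 ± 1.16 CPM (adjusted p = 4.78e-05). *OVOL1* (log2 fold change -2.16, SE 0.25, adjusted p = 1.41e-04) and *KLF4* (log2 fold change -1.11, SE 0.25, adjusted p = 0.00453), factors that promote keratinocyte differentiation, fell. *KLF4* measured 212.9, 107.7 and 112.4 CPM in LV-NC replicates 1, 2 and 3. Its log2 fold change ran from -1.33 to -0.74 when each library was left out. Genes on the opposite strand share 27.1% of the *OVOL1* exon bases. Over all 7 lists, with each gene outside the members counted once, 86 of 166 were tested, 48 called higher, 24 called lower and 14 not called (83.7% called, beside 67.6% of all genes).

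**Figure D4:**
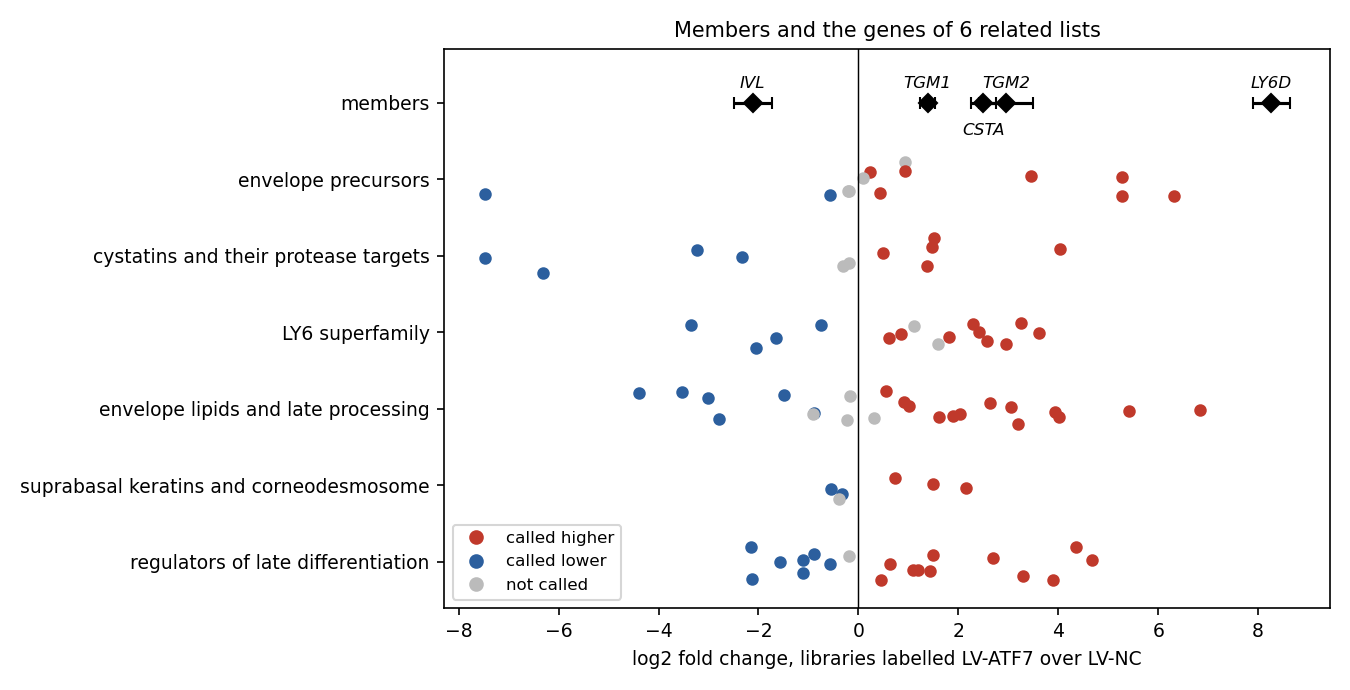
Log2 fold change (libraries labelled LV-*ATF7* over LV-NC) of the 5 measured members, with SE bars and names, and of the genes in 6 related lists, one point a gene, red called higher, blue called lower and gray not called. Every list holds genes on both sides of zero, with list medians from -0.18 for the cystatins and their targets to 1.59 for the LY6 superfamily.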

How the data were processed

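Poly(A) RNA was sequenced from 6 HaCaT libraries, 3 per group by the submitters' labels. Raw counts of reads for each gene were deposited by the authors (12499 genes, each with at least 51 counts over the 6 libraries). Their FPKM values and comparison columns (fold changes and p-values) were not used. GRCh 38 is named in the submitters' processing notes, and the counting program and strandedness are not given in the sources used here. Of the gene IDs, 12485 were found in GENCODE release 29, which gave positions and exon lengths.

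Counts were fitted with edgeR 4.0.16 (TMM, filterByExpr, quasi-likelihood test, Benjamini-Hochberg over the 12462 genes tested, threshold 0.05) in R 4.3.3. CPM relate each gene's counts to the TMM-scaled library total, and log2 CPM use a prior count of 2. Alternatives were DESeq2 1.42.0 (size factors and Wald test), limma 3.58.1 voom with quality weights, library sizes alone, no filter on low counts, a minimum of 10 counts in each library, a replicate block and each library left out.

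The members and gene lists were chosen with earlier results of these data known. Genes named outside the members are *CSTB*, *KRT10*, *KRT1*, *LORICRIN* and *FLG*, up to 3 rises and 3 falls per list (adjusted p under 0.05, mean of at least 50 counts, no overlap between groups), 3 nearest genes in pattern and the nearest neighbours per member, *ATF7* and markers. One gene that this rule names is not reported here. Replicate libraries differed by more than counting noise (chi-square per gene 2.86 to 76.2).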

Additional observations from a re-analysis of the deposited data

How the results depend on the processing

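All 64 member values over the 13 alternatives kept their direction, as did the 743 values of 58 genes outside the members. These 58 are the picks per list, the nearest genes in pattern, the nearest neighbours, *CSTB*, *KRT10*, *FLG* and *ATF7*. The members and most of the 58 were picked by their values in this contrast, which largely fixed their direction in advance. The alternatives also refit the same libraries, so nothing is read from the kept directions. *KRT14*, *KRT80*, *CST6*, *CST7*, *CTSB* and *S100A13* were not among the 58. Only the calls of *CSTB* and *RABGGTA* among those 58 crossed the threshold, under the settings named with their values. Outside the 58, the calls of *KRT14* and *KRT80* were lost in most fits that left out a library, as given above. *IVL* ranged from -2.37 to -1.62, *CSTA* from 2.25 to 2.87 and *TGM2* from 2.44 to 3.33 on the log2 fold change scale. *TGM1* was 1.22 with library sizes alone, which lowered the median of all genes by 0.164 and the share of calls that were higher from 51.3% to 42.4%. With voom and quality weights, *LYPD1* was 3.74, *LYPD2* 3.0 and *PGLYRP4* 6.89. *LY6D* was 7.93 in that fit and had no value with at least 10 counts in every library. Leaving out each library in turn gave 7.69 to 8.60 for *LY6D* and 1.33 to 1.41 for *TGM1*. It gave 1 to 3 suprabasal genes and 4 to 7 regulators called lower, 1 suprabasal gene without LV-NC replicate 2 or 3 or any LV-*ATF7* library, and 4 regulators without LV-*ATF7* replicate 1 or 2. With at least 10 counts in every library, where fewer genes are tested, 4 envelope precursors were called higher and 1 lower. Genes called over all genes ranged from 7290 to 10474. Whether replicate numbers pair the libraries could not be settled, since the correlations of deviations were all small (0.086, -0.084 and 0.126 for the same number). LV-*ATF7* replicates 1 and 3 correlated best with the LV-NC library of the same number, and replicate 2 with LV-NC replicate 1 at 0.082. With a replicate block 8210 genes were called. The log2 fold changes were then 8.25 for *LY6D*, -2.02 for *IVL*, 1.39 for *TGM1*, 3.18 for *TGM2* and 2.56 for *CSTA*. The cause of these shifts was not tested. Depth limits *IVL* in the libraries labelled LV-*ATF7* and *LY6D* in LV-NC most, at 29 to 41 and 0 to 1 counts.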
